A study of Mus musculus with 2 samples.

Results

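The 6 genes described here encode the ligands and receptors of the platelet-derived growth factor (PDGF) family: the ligand chains Pdgfa, Pdgfb, Pdgfc and Pdgfd, and the receptor tyrosine kinases Pdgfra and Pdgfrb. They were chosen by gene symbol from the 32285 genes of the count matrices, and all 6 were found. Single-cell RNA-seq was done on calvarial tissue around a circular frontal bone defect of 1.8 mm, taken from male C57BL/6 mice (C57BL/6J in the study's methods) aged 2 months at day 7 after injury. In the GA group, gambogic amide (GA), a small molecule agonist of the receptor tyrosine kinase TrkA, was injected into the peritoneum daily at 1.2 mg/kg in 10% DMSO. The control group received 10% DMSO, and in both groups treatment started 24 h before injury. Each group is 1 library pooled from 5 mice, so the difference between mice cannot be measured and no test between the groups was possible. The sample records give 1 week of treatment at the dose above, while the study's methods give 2 mg/kg for up to 4 weeks.

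PDGF chains are secreted as dimers that bring receptor chains together at the cell surface. Pdgfa and Pdgfb chains are cut by furin-like convertases inside the cell, whereas the Pdgfc and Pdgfd dimers carry a CUB domain that is removed outside the cell by proteases such as tissue plasminogen activator and matriptase. Dimers of the Pdgfa chain and of the Pdgfc chain act mainly through Pdgfra, dimers of the Pdgfd chain mainly through Pdgfrb, and the Pdgfb chain binds both. Pdgfra marks many mesenchymal progenitors, including those of the cranial sutures and periosteum. Pdgfrb on pericytes and smooth muscle, answering Pdgfb made by endothelium, is the usual example of how vessels recruit their mural cells.

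The GA library held 9322 cell barcodes and 182949385 unique molecular identifiers (UMIs, 1 per captured transcript molecule), and the control library 8718 barcodes and 214993030 UMIs. After limits on depth and removal of likely doublets, 8375 GA cells and 7555 control cells remained, with median depths of 10930 and 16336 UMIs. Cells were clustered with the 6 genes and their pathway genes left out, and 32 of 34 clusters were given a class from fixed marker genes, a class name meaning only that its cells resembled that type by markers. All 10 mural markers, all 8 endothelial markers and all 10 neutrophil markers were highest in their own class. So were 7 of 9 mesenchymal, 7 of 8 osteoblast, 5 of 9 macrophage, 6 of 8 dendritic and 5 of 8 haematopoietic progenitor markers. The progenitor markers Kit, Cd34 and Myb were higher in another class. The cell makeup differed between the libraries: mesenchymal-like cells, among which osteoblast-like cells are counted here, made up 10.6% of GA cells and 23.6% of control cells, and neutrophil-like cells 52.8% and 27.6%. Of all barcodes, 23 occurred in both libraries, 19 of them among the kept cells.

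Positions are given on build GRCm38, the mm10 of the sample records. Pdgfa is at chr5:138976014-138997370 on the minus strand and Pdgfb at chr15:79995874-80014977, also on the minus strand. On the plus strand are Pdgfc at chr3:81036416-81214040, Pdgfd at chr9:6168584-6378850 and Pdgfra at chr5:75152292-75198215. The transcripts of Pdgfc, Pdgfd and Pdgfra were largely those of mesenchymal-like cells, and a window outside the annotated gene was at hand for each. Pdgfrb transcripts were largely mesenchymal too, but its window is not reported here. The 250 bases before the RefSeq start site are shown for the first 3 of these members. They lie at chr3:81036166-81036415, chr9:6168236-6168485 and chr5:75152001-75152250, all on the plus strand, and are printed 5′ to 3′ with any GC box (GGGCGG or CCGCCC) or TATA box (TATAAA or TTTATA) in capitals.
Pdgfc: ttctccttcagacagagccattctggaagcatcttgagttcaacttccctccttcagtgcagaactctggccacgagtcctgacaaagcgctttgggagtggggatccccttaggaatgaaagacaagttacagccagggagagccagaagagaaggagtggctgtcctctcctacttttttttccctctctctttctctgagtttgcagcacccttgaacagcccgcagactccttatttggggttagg
Pdgfd: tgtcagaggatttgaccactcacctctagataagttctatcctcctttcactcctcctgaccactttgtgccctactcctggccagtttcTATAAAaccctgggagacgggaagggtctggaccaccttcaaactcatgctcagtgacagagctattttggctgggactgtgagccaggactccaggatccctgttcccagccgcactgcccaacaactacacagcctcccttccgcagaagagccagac
Pdgfra: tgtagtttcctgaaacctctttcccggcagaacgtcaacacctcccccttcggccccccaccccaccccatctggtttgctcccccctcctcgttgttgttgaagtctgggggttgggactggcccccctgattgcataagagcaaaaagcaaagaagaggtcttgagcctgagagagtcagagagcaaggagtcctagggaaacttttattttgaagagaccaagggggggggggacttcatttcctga
Only the Pdgfd window held either motif, with 1 TATA box, and none of the 3 held a GC box. Of 32851 windows of the same length in that table, 12.4% held a TATA box and 32.7% a GC box on either strand. The GC content was 50.8% for Pdgfc, 53.6% for Pdgfd and 54.4% for Pdgfra, against a median of 52.4% over all windows.

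Over all kept cells the libraries held 39326 UMIs of Pdgfc, 19458 of Pdgfra, 13900 of Pdgfa, 9601 of Pdgfrb, 9097 of Pdgfd and 4234 of Pdgfb. Levels below are in CPM, the UMIs of a gene per 1000000 UMIs of the class in that library. The matrices count transcript ends without a correction for length, so levels were compared between cells and not between genes. All intervals are exact 95% intervals and cover counting error only, not differences between mice or preparations. Those of levels and ratios also leave out the spread between cells. Neutrophil-like and B-like cells served as a measure of free RNA, since they should hold little or none of these transcripts: no member exceeded 1.33 CPM or 1.01% of cells in the neutrophil-like class of either library. The highest values in the B-like class were 1.09 CPM and 1.19% of cells, both for Pdgfc in control.

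Receptor transcripts were held almost entirely by mesenchymal-like cells. This class had 98.9% of all Pdgfra UMIs (99.2% in GA, 98.7% in control) and 92.9% of all Pdgfrb UMIs (91.0% and 93.8%). By comparison, it contributed 29.6% of all UMIs of the GA library and 53.2% of those of the control library. Pdgfra stood at 129 CPM in GA (95% interval 126 to 133) and 133 CPM in control (131 to 136), and it was seen in 90.9% and 92.4% of these cells. The cells of this class were among the deepest, with medians of 50095 and 50927 UMIs. When every cell was thinned to 2000 UMIs, Pdgfra was seen in 23.0% and 20.9% of mesenchymal-like cells, against at most 0.243% of neutrophil-like cells. The thinned Pdgfrb shares of the class were 10.8% and 10.6%, against at most 0.0971%.

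Pdgfrb, at chr18:61045150-61085061 on the plus strand, had its highest level among the named classes in mural-like cells, the pericyte- or smooth-muscle-like class led by genes such as Rgs5 and Myh11. All 5 mural-like cells of the GA library and all 28 of the control library held Pdgfrb UMIs, at 477 CPM (345 to 642) and 317 CPM (280 to 359). These few cells nevertheless held 3.11% of Pdgfrb UMIs, while mesenchymal-like cells stood at 53.6 CPM (51.5 to 55.7) in GA and 65.0 CPM (63.4 to 66.6) in control. Summed over both libraries, the order of the Pdgfrb level over the named classes was mural-like (333 CPM), mesenchymal-like (61.3), endothelial-like (19.1) and haematopoietic progenitor-like (6.17), each interval apart from the next down to this point. The endothelial-like value rested on few cells, with 22 UMIs in 3 of 51 GA cells and 30 UMIs in 5 of 42 control cells. After thinning, Pdgfrb was seen in 1 of 29 GA and 0 of 42 control cells of that class. Basophil-like cells came after the progenitor-like cells at 5.20 CPM, with an interval that overlapped theirs. Pdgfra showed no such second named class: after 132 CPM in mesenchymal-like cells came 6.68 CPM in erythroid-like cells, all of it 23 UMIs in 2 control cells of a cluster led by Il1b and Retnlg. A single Pdgfra UMI was found over all 33 mural-like cells. The unnamed cells, described further on, had 79.5 CPM of Pdgfra and 27.9 CPM of Pdgfrb in control, against 2.80 and 9.80 CPM in GA.

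Ligand transcripts were spread over more classes, and the chains differed in how they were spread. Pdgfc and Pdgfd were largely mesenchymal, with 87.4% and 90.9% of their UMIs in mesenchymal-like cells. Pdgfa was shared between mesenchymal-like cells (63.0%) and macrophage- or monocyte-like cells (22.8%). Of all UMIs, the latter class contributed 19.0% in GA and 21.6% in control, close to its Pdgfa shares there of 23.2% and 22.6%. Pdgfb was the exception, with 54.5% of its UMIs in macrophage- or monocyte-like cells, 14.6% in endothelial-like cells, 9.80% in dendritic-like cells and 9.59% in osteoclast-like cells. Mesenchymal-like cells, which held nearly all receptor UMIs, had 9 Pdgfb UMIs in GA and 27 in control, that is 0.189 CPM and 0.275 CPM. Over both libraries the interval of this level overlapped that of the neutrophil-like cells (0.247 against 0.205 CPM). Counted per cell it was higher, 0.0101 UMIs in GA and 0.0152 in control, against 0.00226 and 0.000959 in neutrophil-like cells. The mesenchymal cluster led by Eln and Col4a1 held 52.8% of these Pdgfb UMIs.

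**Figure D1:**
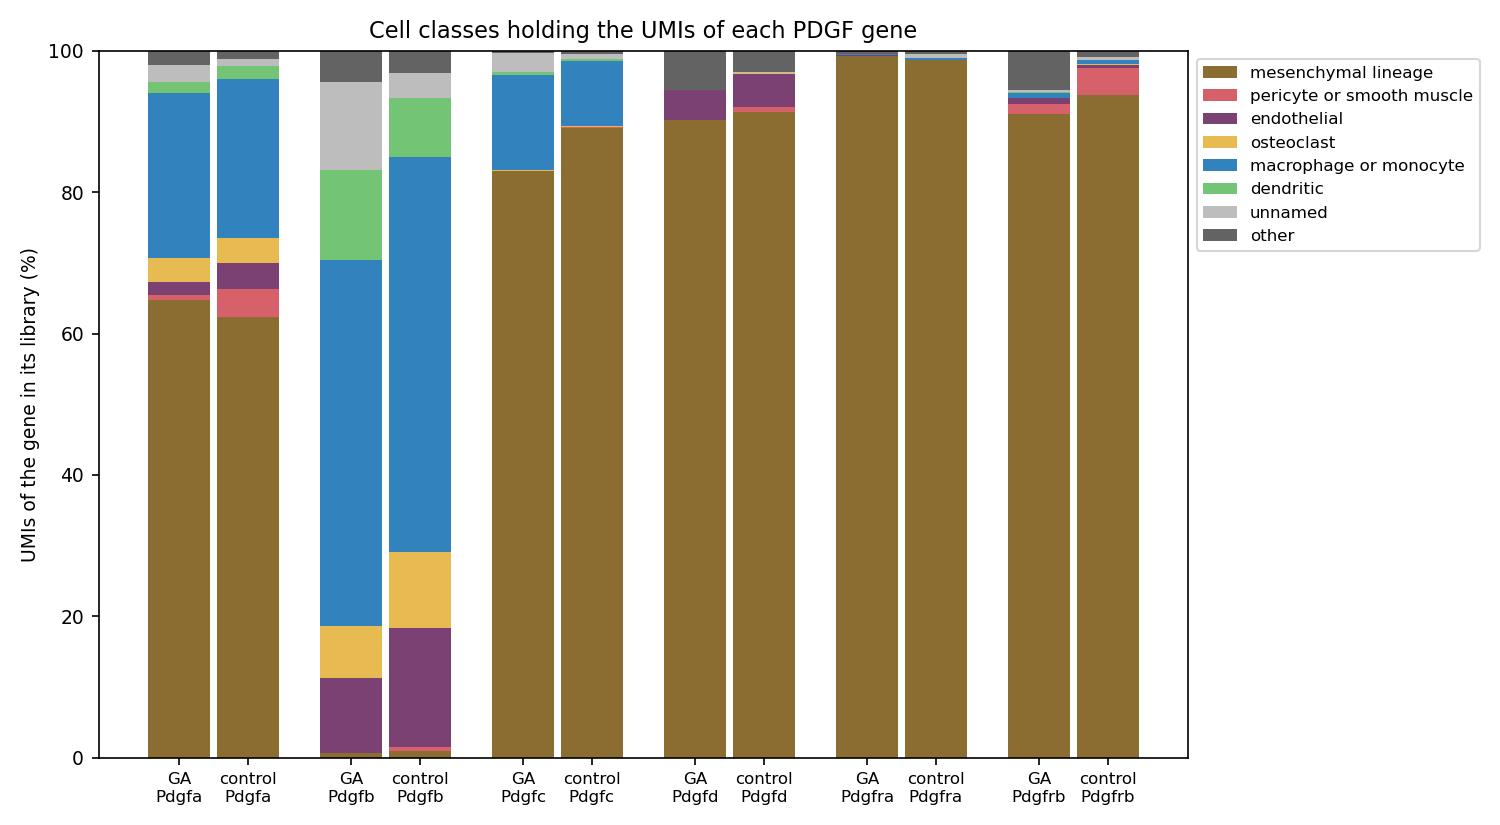
Share of each gene's UMIs held by each cell class (vertical axis, percent) in the GA and control libraries, 1 pair of stacked bars per gene. Mesenchymal-like cells fill most of the bars of Pdgfra, Pdgfrb, Pdgfc and Pdgfd, whereas macrophage- or monocyte-like cells held 51.7% (GA) and 56.0% (control) of Pdgfb.

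Ordered by level rather than by amount, and over the named classes alone, the vessel wall came first for 3 of the 4 ligands. Some clusters within other classes, given further on, had higher levels than the leading class. Among them were the Dmp1 and Phex cells for Pdgfa and Pdgfd and the Csmd1 and Lepr cells for Pdgfd. In GA alone, the Nav3 cluster exceeded it for Pdgfb and the Slc47a1 cluster for Pdgfd. Of the named classes, mural-like cells had the highest Pdgfa level, at 299 CPM (197 to 435) in GA and 492 CPM (445 to 543) in control. Every mural-like cell held Pdgfa. After them for Pdgfa came endothelial-like (164 CPM over both libraries), osteoclast-like (117), mesenchymal-like (60.1) and macrophage- or monocyte-like cells (45.1), with intervals that did not overlap down to the last of these. Among the named classes Pdgfb was highest in endothelial-like cells, at 174 CPM (147 to 203) in GA and 255 CPM (232 to 279) in control, followed by osteoclast-like cells at 79.6 and 106 CPM. The unnamed cells had more in GA, 259 CPM of Pdgfb (223 to 299), against 104 CPM in control, values that pool clusters given apart further on. Dendritic-like (43.6 CPM over both libraries), megakaryocyte-like (33.0) and macrophage- or monocyte-like cells (32.8) came after them, neighbours in this order having overlapping Pdgfb intervals, and T- or NK-like cells had 17.9 CPM. Pdgfd was also highest in endothelial-like cells, at 156 CPM (131 to 184) and 150 CPM (133 to 169), ahead of erythroid-like (74.4 CPM over both libraries) and mesenchymal-like cells (56.8).

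Pdgfc was the only chain whose top level among the named classes was in mesenchymal-like cells, at 188 CPM (184 to 192) in GA and 259 CPM (256 to 263) in control, seen in 85.0% and 87.3% of cells. Macrophage- or monocyte-like cells followed with 47.9 and 65.9 CPM. Again the unnamed cells had more than the mesenchymal-like cells in GA, with 402 CPM of Pdgfc, against 226 CPM in control. These values pool clusters of unlike share in the libraries, and the larger cluster alone differed less, as given further on. In endothelial-like cells Pdgfc was all but missing. It had 0 UMIs over 51 GA cells, which allows up to 3.32 CPM, and 2.21 CPM over 42 control cells. Pdgfc and Pdgfd, the pair of CUB-domain chains, thus differed in this class, while mesenchymal-like cells held most UMIs of both. Macrophage- or monocyte-like cells in turn lacked Pdgfd, at 0.0855 CPM over both libraries. Many GA endothelial-like barcodes were shallow, with a median of 10113 UMIs against 32978 in control: 1 endothelial cluster of 32 cells (23 GA, 9 control) had a median of 840 UMIs and was led by haemoglobin and neutrophil granule genes.

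**Figure D2:**
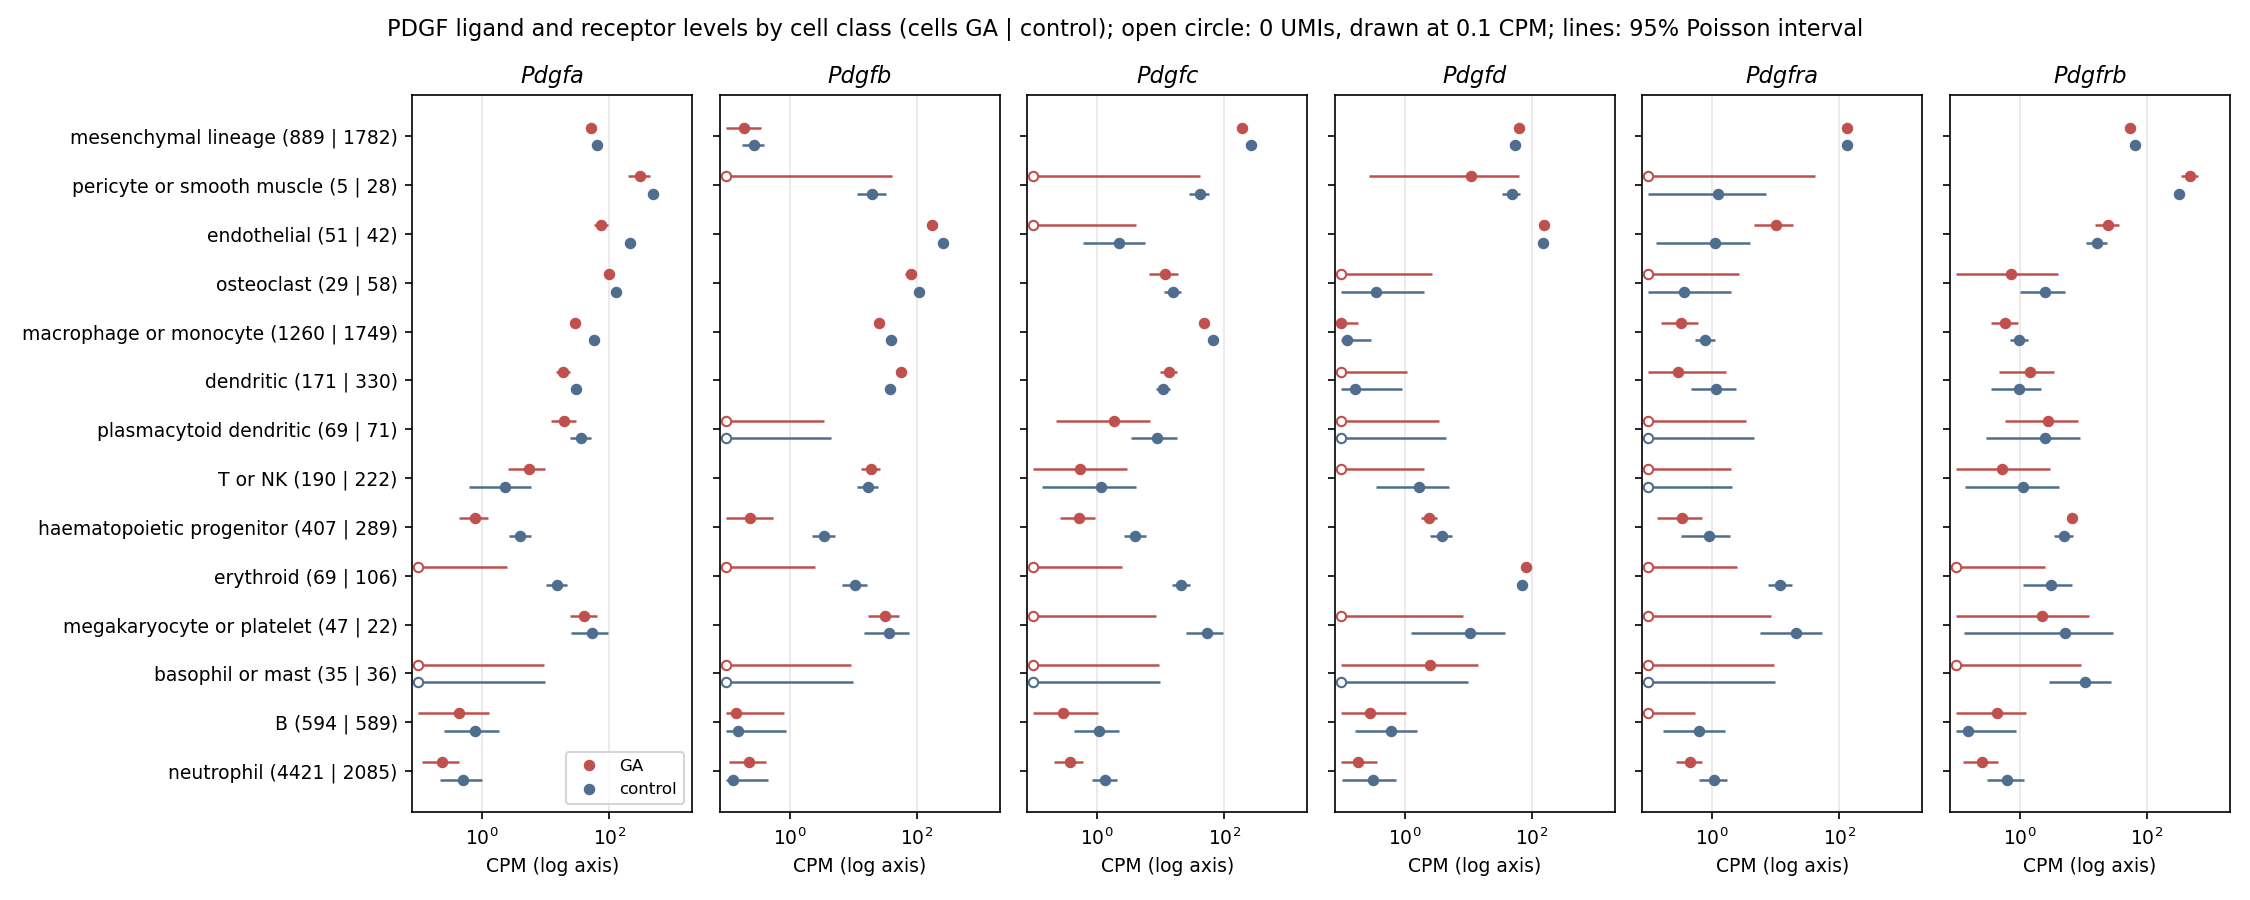
Level of each PDGF gene by cell class (horizontal axis, CPM on a log scale) for GA and control, bars marking exact 95% counting intervals. Among the named classes Pdgfra and Pdgfc peak in mesenchymal-like cells, Pdgfrb and Pdgfa in mural-like cells, and Pdgfb and Pdgfd in endothelial-like cells.

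Within the mesenchymal-like cells, 14 clusters were separated, described here by their leading genes. Pdgfra was broad. In the cluster led by Pi16 and Clec3b, genes known from fibroblast progenitors of the adventitia, it stood at 180 CPM in GA and 164 CPM in control, with 99.4% and 96.6% of cells holding it. Its level was lower in several other clusters. The osteoblast-like cluster led by Bglap, which encodes osteocalcin, had Pdgfra at 76.4 and 97.5 CPM, and a cluster led by Slc47a1 and Ptgds, genes known from meningeal fibroblasts, at 27.5 and 59.6 CPM. In a small osteocyte-like set of 16 cells, named osteoblast by the marker lists and led by Dmp1 and Phex, lay 0.172% of the lineage's Pdgfra UMIs. This share follows the small number of cells: 7 of the 11 GA cells and 2 of the 5 control cells held Pdgfra.

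Pdgfrb followed another order across the same clusters. Pdgfrb peaked in a cluster of 39 cells led by Csmd1, Hp and Lepr, with Cxcl12 among its top genes, at 273 CPM in GA (216 to 341) and 206 CPM in control (177 to 238). The cluster led by Mmp13, Megf6 and Scx, the last a tendon progenitor factor, had Pdgfrb at 132 and 96.7 CPM, and the cluster led by Eln and Col4a1, genes of elastic fibres and basement membrane, at 122 and 146 CPM. The lowest Pdgfrb levels among larger clusters were in the Bglap cluster, at 11.4 and 9.62 CPM with 22.7% and 28.1% of cells holding it, and in the cluster led by Dmkn and Adamts19, at 20.7 and 14.8 CPM. In the Dmp1 and Phex cells a single Pdgfrb UMI was found.

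Without thinning, most mesenchymal-like cells held both receptors: 70.8% of GA cells and 75.8% of control cells. Cells with Pdgfra and no Pdgfrb made up 20.1% and 16.7%, and cells with Pdgfrb and no Pdgfra 4.16% and 5.61%. In the Bglap cluster the Pdgfra-only cells were the majority, at 54.7% and 59.6%, while 22.7% and 12.3% held neither receptor. At the low Pdgfrb level of this cluster, a cell without a Pdgfrb UMI need not lack the transcript. The cluster led by Slc47a1 and Ptgds leaned the other way, with 50% of its 28 GA cells and 25% of its 116 control cells holding Pdgfrb without Pdgfra. The log2 ratio of Pdgfrb to Pdgfra UMIs, set between clusters and not read as a ratio of receptor amounts, ran from −3.34 in the control Bglap cells to 1.72 in the GA cells of the Csmd1 cluster.

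**Figure D3:**
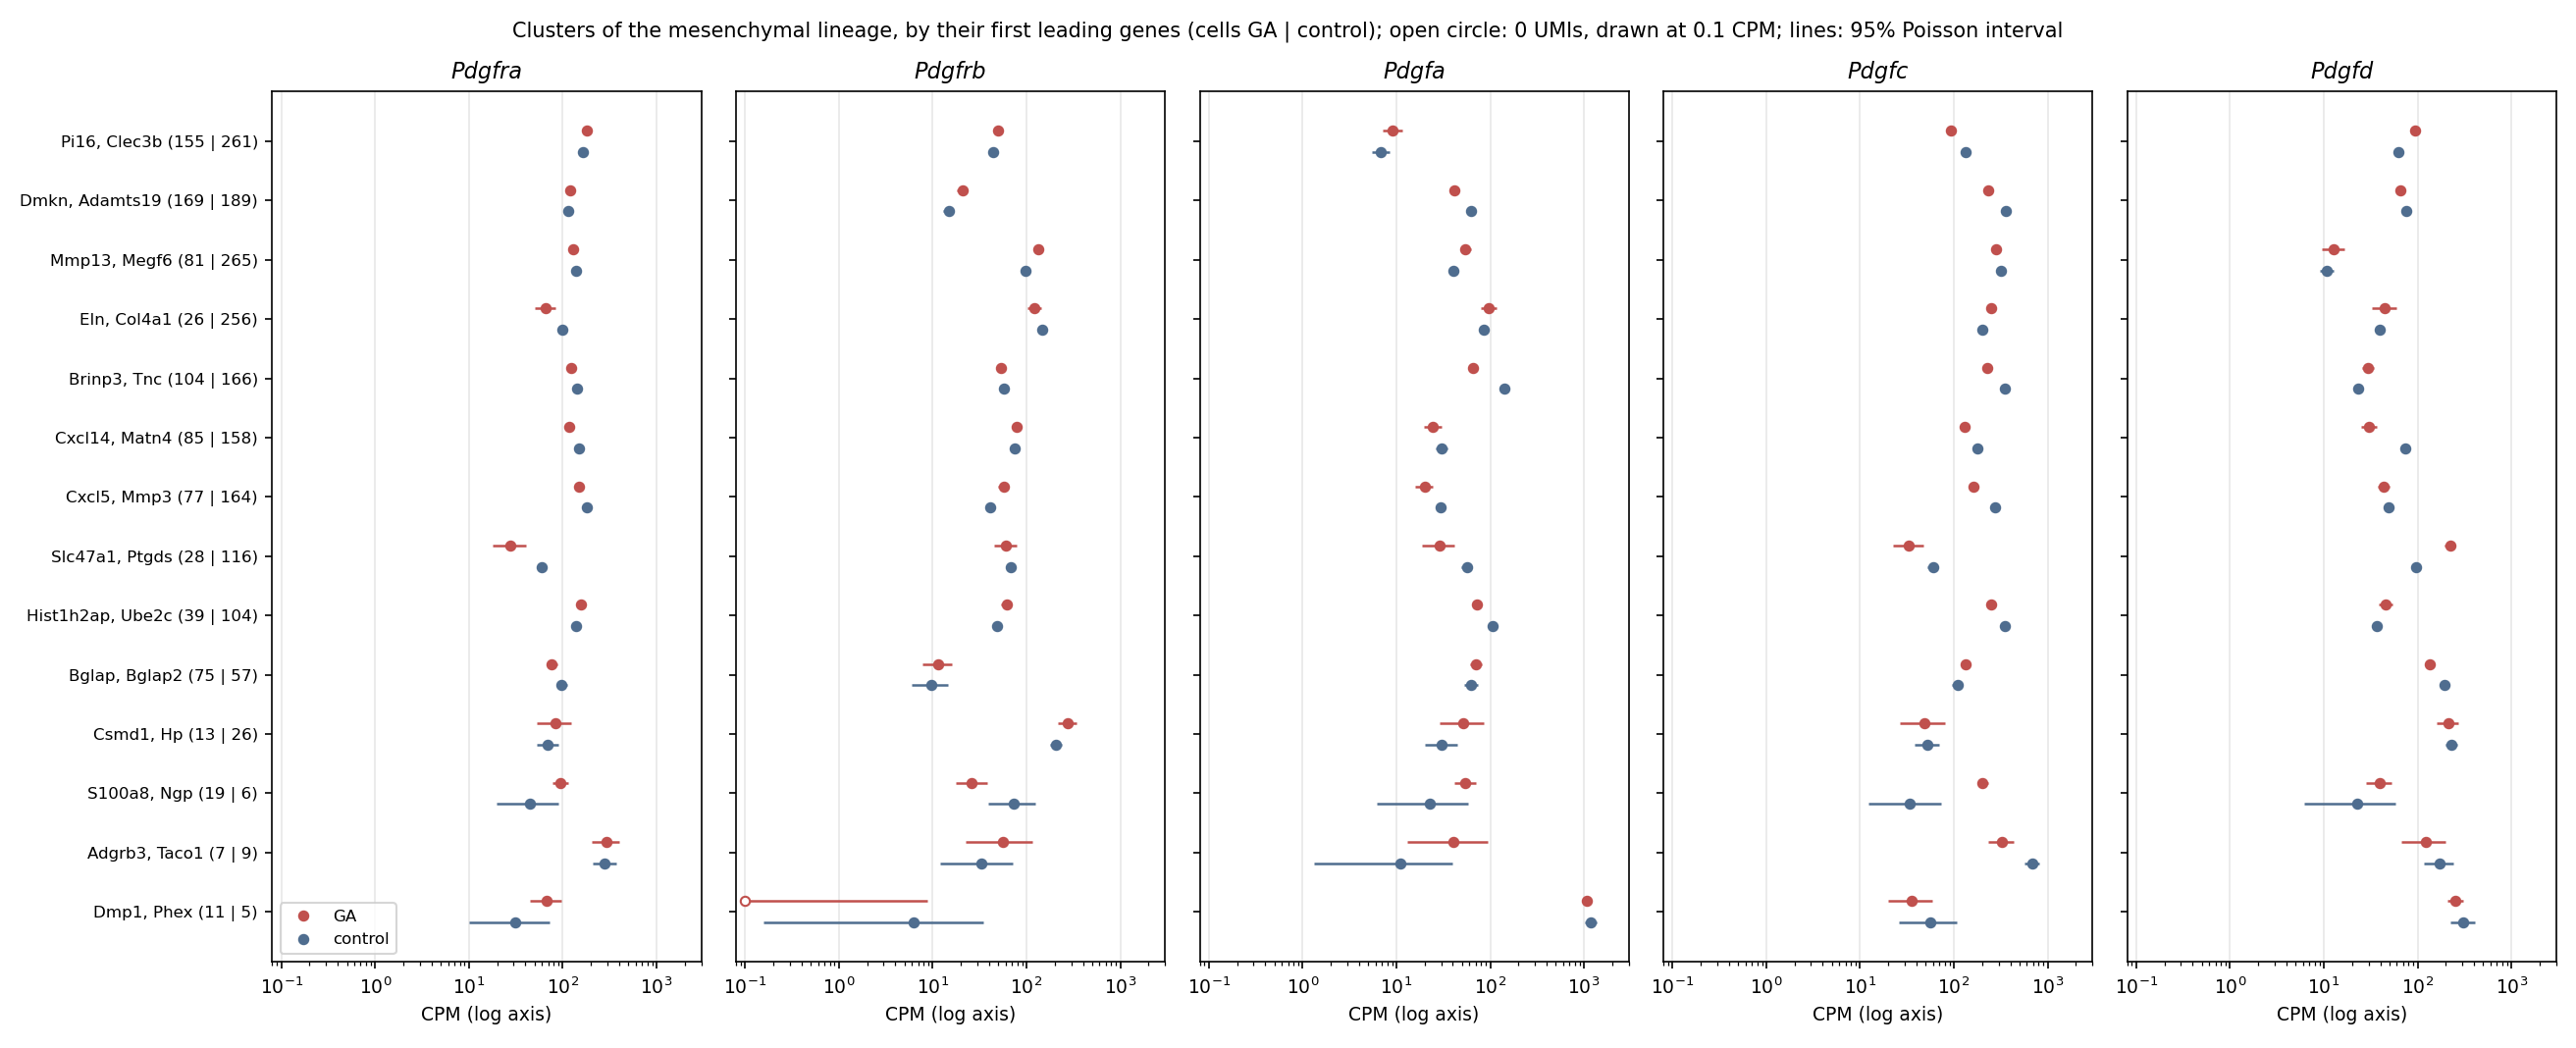
Levels of the PDGF genes (CPM, horizontal axis) in the 14 clusters of mesenchymal-like cells, each named by its leading genes, for GA and control with exact 95% counting intervals. Pdgfra is broad, Pdgfrb is highest in the Csmd1 cluster and low in the Bglap cluster, and Pdgfa is highest in the Dmp1 and Phex cells.

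The ligands also differed among these clusters. Pdgfa reached 1083 CPM (986 to 1188) in the 11 GA cells and 1174 CPM (1012 to 1354) in the 5 control cells of the Dmp1 and Phex cluster, all of which held it. These 16 cells carried 7.33% of the Pdgfa UMIs of all mesenchymal-like cells. At the other end, the Pi16 and Clec3b cluster had Pdgfa at 9.19 and 6.85 CPM. The cluster led by Brinp3 and Tnc, which also had contractile genes such as Acta2 among its top genes, held 22.8% of Pdgfa UMIs at 65.8 CPM in GA and 142 CPM in control.

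Among the larger clusters, Pdgfc was highest in connective tissue cells of several kinds and in dividing cells. It stood at 231 CPM in GA and 360 CPM in control in the Dmkn and Adamts19 cluster, at 279 and 319 CPM in the Mmp13 and Scx cluster, and at 251 and 353 CPM in dividing cells led by Hist1h2ap. A set of 16 cells led by Adgrb3 and Taco1 had more, 323 and 687 CPM of Pdgfc with 290 and 280 CPM of Pdgfra. Pdgfc was low in the Slc47a1 and Ptgds cluster, at 33.0 and 59.6 CPM. Pdgfd took another order: the Mmp13 and Scx cluster had only 12.7 and 10.8 CPM of Pdgfd, while the Slc47a1 cluster had 222 and 95.3 CPM. The Csmd1 and Lepr cells (211 and 228 CPM), the Dmp1 and Phex cells (253 and 306 CPM) and the Bglap osteoblast-like cells (134 and 191 CPM) were also rich in Pdgfd.

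Macrophage- or monocyte-like cells fell into 18 clusters that used the chains differently. Pdgfc was highest in the cluster led by Cd209f, Ccl8 and Cd163, genes of resident-type macrophages, at 184 CPM in GA and 192 CPM in control, with 76.6% and 75.0% of cells holding it. Pdgfa was highest in the cluster led by MHC class II genes with Vcam1 and Spic in GA, at 160 CPM, and there and in the Cd209f cluster alike in control, at 134 and 135 CPM. Pdgfb was highest in the cluster led by Nav3, Serpine2 and Cd5l, at 256 and 152 CPM. Cells led by Ace and Adgre4, which resembled non-classical monocytes, held Pdgfb at 64.0 and 79.0 CPM and no Pdgfa UMI in either library, which allows up to 12.0 and 11.9 CPM. The large cluster led by Tppp3 and Arg1 held Pdgfc at 95.9 and 77.7 CPM and Pdgfb at 44.0 and 48.1 CPM, with little Pdgfa (8.89 and 19.8 CPM).

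In 5 of the macrophage clusters, Pdgfa, Pdgfb and Pdgfc were each under 10 CPM in both libraries. They were led by Vcan, by Arhgef37 with other Ly6c2 monocyte genes, by histone genes of dividing cells, by Aff3 with granule genes, and by heat shock genes. The heat shock cluster, of 5 GA and 8 control cells, held no UMI of these chains. Its cells were too few to show that the levels lay under 10 CPM. These clusters took up 37.5% of the class's cells in GA (473 of 1260) and 16.4% in control (286 of 1749), and 41.6% against 11.6% of its UMIs. The limit of 10 CPM was chosen after the values were seen. The share moved together with the lower class-wide levels in GA described below. Its part in them was not tested beyond the value with each cluster weighted the same in both libraries.

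**Figure D4:**
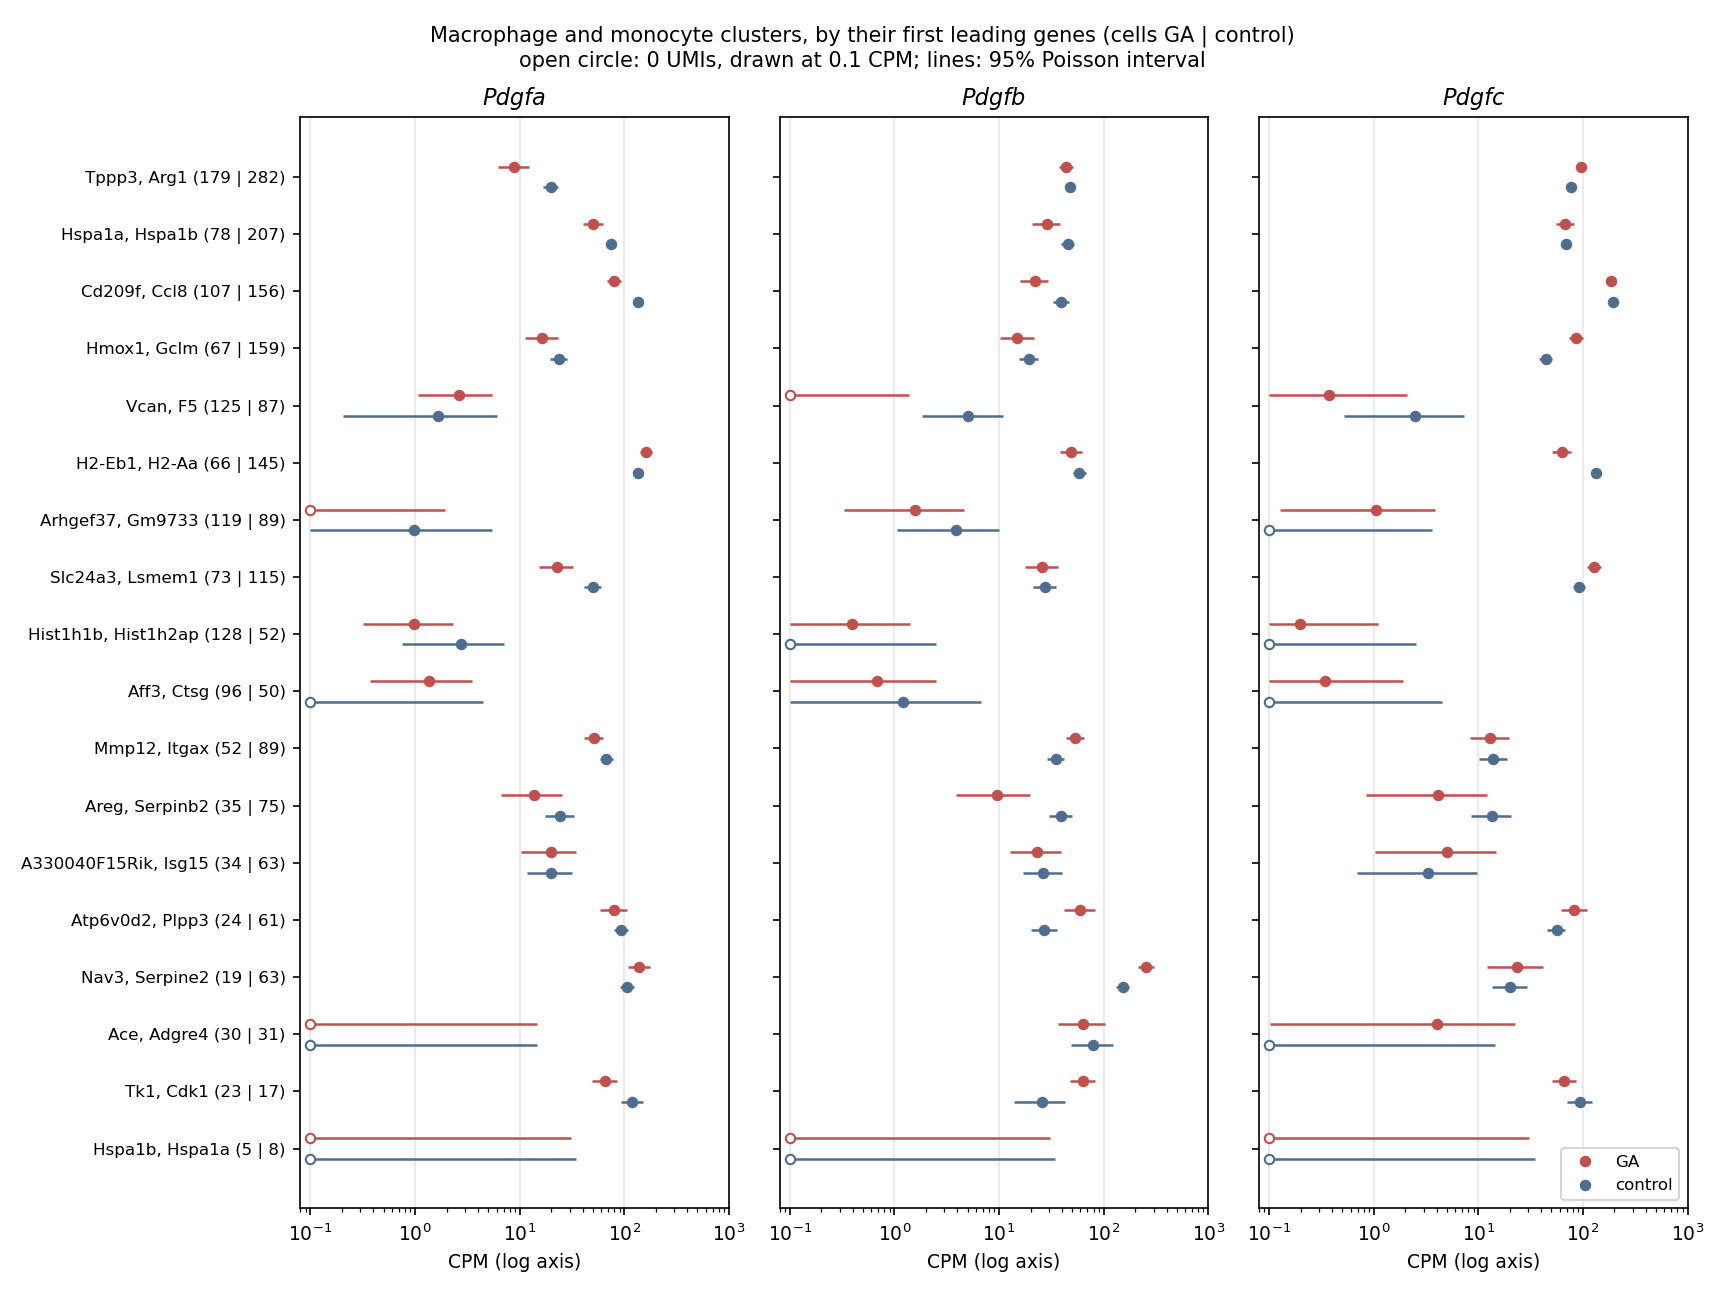
Levels of Pdgfa, Pdgfb and Pdgfc (CPM, horizontal axis) in the 18 clusters of macrophage- or monocyte-like cells, named by leading genes, for GA and control with exact 95% counting intervals. In GA the 3 chains peak in different clusters, and in both libraries 5 clusters have values under 10 CPM for all of them. The heat shock cluster among these has 13 cells and no UMI of the chains, too few cells to bound the levels there.

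Smaller classes added a few sources of single chains. Dendritic-like cells held Pdgfb in 47.4% of GA cells and 38.8% of control cells, at 55.3 and 37.1 CPM, and each of their 10 clusters had some. Of the 244 Pdgfa UMIs of this class, 156 came from 1 cluster led by Gdf15 and Ccl8 with C1qc, a macrophage complement gene, so that the class's Pdgfa lay largely in cells with macrophage genes. In T- or NK-like cells Pdgfb was seen in 14.2% and 12.6% of cells. After thinning the Pdgfb shares were 10.5% and 7.27% in dendritic-like and 4.28% and 3.67% in T- or NK-like cells, against at most 0.114% in neutrophil-like cells. Erythroid-like cells held Pdgfd at 81.9 CPM in GA and 68.7 CPM in control, and 233 of the 256 Pdgfd UMIs lay in their 2 deepest clusters. One of these, led by Stard10 and Sox5, had Pdgfd in 61.5% of 13 GA cells and 73.7% of 19 control cells. The thinned Pdgfd shares of all erythroid-like cells were 9.68% and 11.8%.

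Haematopoietic progenitor-like cells held Pdgfrb at 6.55 and 5.00 CPM, in 22.1% of GA cells and 7.61% of control cells. These cells were much deeper in GA (median 49154 UMIs against 24430), and after thinning the shares were 1.72% and 2.19%. Among clusters with more than 10 Pdgfrb UMIs the level was highest in the one led by Dntt and Flt3, genes of lymphoid-primed progenitors, at 19.7 CPM in 56 GA cells and 22.4 CPM in 26 control cells, and 28 and 10 of these cells held it. A cluster led by Fabp4, Cd200 and Emcn, genes of endothelial cells among others, with a median of 2099 UMIs, had 8 Pdgfrb UMIs in 10 GA cells (20.7 CPM, 8.95 to 40.9) and 0 in 27 control cells, which allows up to 49.3 CPM. The thinned Pdgfrb share in neutrophil-like cells was at most 0.0971%. Another cluster of 74 shallow cells (5 GA, 69 control) was led by Acta2 and Mgp, genes of contractile and mesenchymal cells, and the part of such cells in the class's values was not tested.

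Of the 2 unnamed clusters, the larger (123 GA and 133 control cells, median 1823.5 UMIs) was led by Fcna, Cd5l, Vcam1 and Spic. Its best-scoring class was macrophage or monocyte, with 6 markers past the naming limits, yet it was left unnamed. It held Pdgfc at 419 and 373 CPM, Pdgfb at 274 and 173 CPM and Pdgfa at 130 and 67.3 CPM. Both unnamed clusters together carried 12.5% of all Pdgfb UMIs in GA and 3.66% in control. Over both, the log2 ratio of GA over control was 1.31 (0.96 to 1.68) for Pdgfb, 0.83 (0.57 to 1.09) for Pdgfc and 0.23 (−0.20 to 0.65) for Pdgfa. The smaller, with the myelin gene Mbp among its leading genes, held 67 Pdgfra UMIs in 7 of 13 control cells and 64 Pdgfa UMIs in 10 of them, against 0 and 1 UMI in 15 GA cells. Its GA cells summed to only 39755 UMIs, against 389320 in control, and the count of 0 allows up to 75.5 CPM of Pdgfra there, against 172 CPM in control. The ratios over both clusters include this difference in makeup, while in the larger cluster alone Pdgfc stood at 419 against 373 CPM.

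Detection of pairs in the same cell was compared after thinning, against the number that the shares of the single genes would give. In mesenchymal-like cells Pdgfra and Pdgfrb were seen together in 24 GA cells (product of shares 22.1) and 47 control cells (39.5). Pdgfc and Pdgfra were seen together in 50 (54.6) and 112 (115) of these cells, and Pdgfa and Pdgfra in 11 (18.2) and 32 (38.4). Among macrophage- or monocyte-like cells, Pdgfa and Pdgfb met in 6 cells (2.48) and 19 cells (8.66), and Pdgfb and Pdgfc in 3 cells (4.16) and 6 cells (9.99). Without thinning, Pdgfa and Pdgfrb were both present in every mural-like cell of both libraries, and Pdgfb and Pdgfd together in 14 of 51 GA and 33 of 42 control endothelial-like cells. The endothelial counts are not compared between the libraries, since the median depth was 10113 UMIs in GA and 32978 in control. Such counts describe detection, not dimers or signalling.

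Between the libraries, the ligand differences in mesenchymal-like cells were small and of both signs. Pdgfc was lower in GA by a log2 ratio of −0.46 (−0.50 to −0.43) and Pdgfa of −0.30 (−0.37 to −0.23), while Pdgfd was higher at 0.24 (0.17 to 0.30). Pdgfra was nearly level at −0.045 (−0.09 to −0.0015), and Pdgfrb stood at −0.28 (−0.34 to −0.21). None of the 5 members with at least 100 UMIs in this class was past 1.5-fold, the size rule used in place of a test, against 11.8% of the class's 14216 genes. The intervals show only that counting error does not bridge these differences, since mice and preparations were not replicated. The spread between cells is not covered either. With equal weight for each cell the Pdgfa ratio was −0.10, outside its interval.

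Class-wide ratios and ratios within clusters did not always point the same way. For Pdgfrb, 7 of the 10 mesenchymal clusters with enough UMIs were higher in GA, although the class as a whole was lower. The Eln and Col4a1 cluster, which held 22.0% of the Pdgfrb UMIs of the class, made up 2.92% of mesenchymal-like cells in GA and 14.4% in control. With each cluster given the same weight in both libraries, its share of the class's UMIs, the Pdgfrb ratio was 0.15. For Pdgfc, 9 of 12 clusters were lower in GA and every one of the 12 intervals lay to one side of 0. The largest Pdgfc ratio, 2.58, came from a cluster of 19 GA and 6 control cells led by the neutrophil genes S100a8 and Ngp. Pdgfd was split, 6 clusters higher and 6 lower, from −1.27 in the Cxcl14 and Tnmd cluster (30.5 against 73.7 CPM) to 1.22 in the Slc47a1 and Ptgds cluster.

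The cells named macrophage- or monocyte-like, taken as a whole, had lower levels of all 3 of their chains in GA. Pdgfa was 29.1 CPM against 57.3 (log2 ratio −0.98, −1.09 to −0.86), Pdgfb 25.1 against 38.8 (−0.63, −0.75 to −0.50) and Pdgfc 47.9 against 65.9 (−0.46, −0.55 to −0.37). Pdgfa and Pdgfb, 2 of the 3 members counted, were past 1.5-fold, against 16.8% of the genes of this class. The larger unnamed cluster, whose best-scoring class was this one, is not counted here. That cluster had higher levels of all 3 chains in GA, and the ratios with it added were not computed. The median gene of the class lay at 0.11, and relative to it the ratios were −1.09, −0.74 and −0.57. Pdgfa was lower in GA in 8 of the 10 clusters with enough UMIs, Pdgfb in 5 of 7 and Pdgfc in 4 of 8. With each cluster given the same weight in both libraries, the ratios were −0.34 for Pdgfa, −0.0025 for Pdgfb and 0.076 for Pdgfc. The weight was the cluster's share of the class's UMIs. The Pdgfb ratio of the class also shrank to −0.083 with another seed of the clustering and to −0.019 without the correction between libraries, whereas Pdgfa stayed past the fold in 14 of 16 alternatives. The Pdgfc ratio turned to 0.0039 with that seed and to 0.040 without the correction, and so kept its sign in 13 of 16.

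Endothelial-like cells had Pdgfa at 74.1 CPM in GA and 209 CPM in control, a log2 ratio of −1.49 (−1.89 to −1.12). This was 1 of 3 members past the fold in a class where 14.8% of genes were, and it was past it in all 15 alternatives tried. Pdgfb had a ratio of −0.56 (−0.83 to −0.29) and Pdgfd of 0.05 (−0.25 to 0.35) there. Over the 15 alternatives Pdgfb ran from −1.84, after thinning, to −0.25 and was past the fold in 4. Pdgfd ran from −1.11, with equal weight for each cell, to 0.26, and its sign turned in 4. The depth of the GA endothelial-like cells moved with this result, as given above. With cells under 2000 UMIs left out the Pdgfa ratio was −1.65, and with every cell thinned to that depth it was −0.73. The 5 cells richest in Pdgfa held 52.2% of the class's Pdgfa UMIs in GA and 51.3% in control.

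The other classes rested on few cells. In dendritic-like cells Pdgfa, at 18.5 against 29.6 CPM, was 1 of 3 members past the fold (8.99% of genes were), and its sign turned under 5 of the alternatives. Pdgfb had a dendritic ratio of 0.57 (0.29 to 0.86), just inside 1.5-fold, but was past it in 8 of 15 alternatives, from 0.075 to 0.95. The dendritic Pdgfc ratio, 0.27, ran from 0.048 to 2.23 and was past the fold in 5. In mural-like cells both members counted were past the fold, Pdgfa at −0.72 (−1.34 to −0.15) and Pdgfrb at 0.59 (0.09 to 1.06), where 35.9% of genes were, the GA side being 5 cells and the median gene lying at −0.11. The Pdgfrb ratio of the mural-like cells lay just past 1.5-fold and was past it in 4 of 11 alternatives. Its sign turned in 3 of the 11, among them to −0.017 when each cell was thinned to 2000 UMIs. Neither Pdgfa (−0.38) nor Pdgfb (−0.41) was past the fold in osteoclast-like cells (7.25% of genes were), nor Pdgfd (0.25) in erythroid-like cells (10.4%), nor Pdgfrb (0.39) in progenitor-like cells (8.1%). These values also depended on the setting. In osteoclast-like cells Pdgfa turned to 0.49 after thinning, and Pdgfb was past the fold in 2 of 15 alternatives, furthest at −0.78 with equal weight for each cell. Erythroid-like Pdgfd turned to −0.59, past the fold, without the 5 cells richest in it in each library. Progenitor-like Pdgfrb ran from −0.25 with doublets kept to 1.04 with at least 2000 UMIs per cell, and was past the fold in 3.

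**Figure D5:**
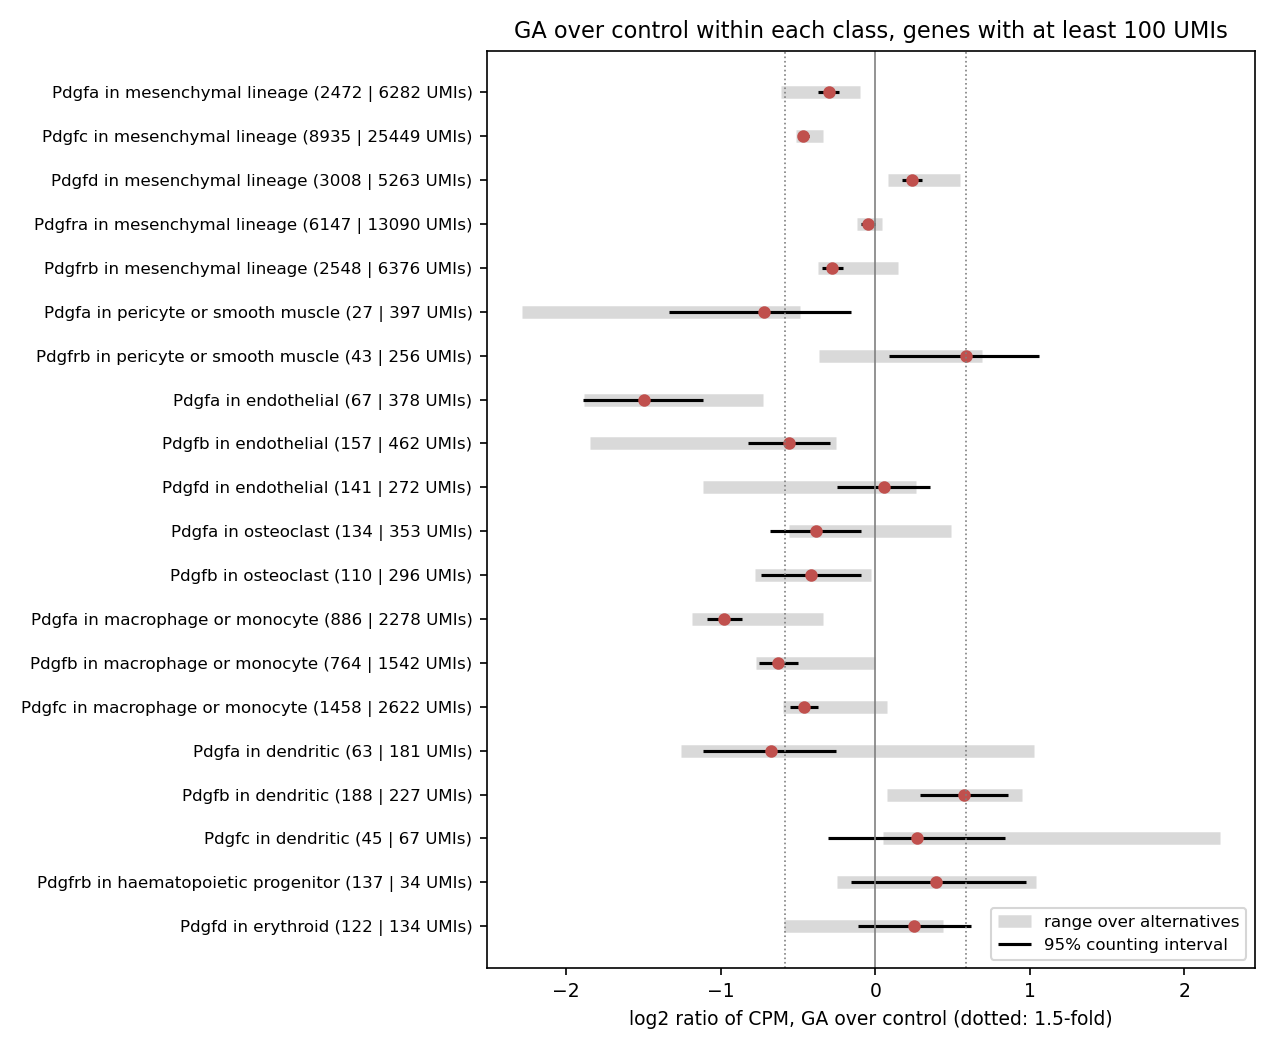
Log2 ratio of GA over control (horizontal axis) for each member in each named class where it had at least 100 UMIs, with exact 95% counting intervals and dashed lines at 1.5-fold. Pdgfa lies on the lower side in all 6 classes shown, furthest in endothelial-like cells at −1.49, but its sign turned under other settings in dendritic- and osteoclast-like cells.

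Other genes of the pathway were read from 5 lists of 36 genes. In mesenchymal-like cells, the class with most Pdgfra, 35 list genes had enough UMIs, 3 were past the fold upward and none downward, where 5.63% of all genes of the class were past it upward and 11.8% in either direction, so that the count was near that of genes at large. Pcsk6, a furin-like convertase, was the one of 5 ligand processing genes past it, at 68.8 CPM in GA and 32.4 in control (log2 ratio 1.09). None of the 6 ligand-binding and co-receptor genes, the 11 receptor-proximal adaptors and enzymes or the 6 negative regulators was past the fold, with medians of −0.15, −0.07 and −0.26 against −0.02 over all genes of the class. Of the 7 genes known to be induced by PDGF, the immediate early genes Fos (1110 against 708 CPM) and Egr1 (717 against 457 CPM) were past it, each at 0.65, with a list median of 0.09.

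Mural-like cells, the class with most Pdgfrb UMIs per cell, gave 16 countable list genes, 9 of them past the fold. Of the 1649 genes counted in this class 35.9% were past it, 11.9% higher and 24.0% lower in GA. The GA side is 5 cells. Ccl2, a monocyte chemoattractant, was higher in GA at 3913 against 682 CPM (log2 ratio 2.52), as were Thbs1 at 1.39, Cblb, a ubiquitin ligase that acts on activated receptors, at 1.35, the phosphatase Ptprj at 1.10, Cxcl1 at 0.84 and Pik3r1 at 0.64. Fos was lower at −2.66 (−3.98 to −1.60), Plat at −1.01 (−2.25 to 0.0081) and Gab1 at −0.94 (−2.09 to 0.026). These rest on 7, 8 and 9 GA UMIs, and the intervals of Plat and Gab1 spanned both signs. Fos thus had opposite signs in mural-like and mesenchymal-like cells, on 7 GA UMIs in the former, which was not tested.

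The genes most like each member were sought over 49 classes and clusters, by Pearson correlation of log2(CPM + 1) among 13454 genes. The points share 2 libraries and differ in depth, and clusters were drawn from the classes, so the values are descriptions. Pdgfra was most like Srpx (0.99), Col5a2 (0.98) and Col5a1 (0.98), genes of the fibrillar matrix and its cells. Among the genes most like Pdgfrb were Nlgn2 and Ptprd (0.93 and 0.93), and Pdgfd was most like Ccn1, Yap1 and Ptprg (0.96, 0.95 and 0.95). Pdgfc came closest to Rac3 (0.91), Lpar1 (0.88) and Olfml3 (0.87). The Pdgfa pattern was nearest to Hbegf, Sh3bgrl2 and Pmepa1 (0.86, 0.86 and 0.85), and the Pdgfb pattern to F11r, Prdm1 and Ehd4 (0.88, 0.82 and 0.82). Between the receptors themselves the value was 0.83, and between Pdgfb and Pdgfra −0.54.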

How the data were processed

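The authors deposited raw counts, that is UMIs per gene and barcode, for each library. The file header names Cell Ranger 7.0.1, the submitters' processing notes name Cell Ranger and mm10, and whether reads were made with 3′ v3.1 or GEM-X chemistry is given differently in the study's methods. No column of another series was used (0).

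As in the study, barcodes were kept if they had 500 to 140000 UMIs and 200 to 9500 genes, with at most 15% mitochondrial UMIs, which left 9036 GA and 8093 control barcodes. Scrublet (in scanpy 1.11.5, Python 3.11.15) marked 0.0322% of GA and 0.596% of control barcodes. Because the first share fell below 0.5%, removal went by rank of the score instead, at a rate that grew with the number of barcodes, and took 661 from GA and 538 from control. Clustering used 2000 variable genes without the members and the pathway genes, Pearson residuals (theta 100), 50 principal components, Harmony over the 2 libraries, 15 neighbours and Leiden at resolution 1 with seed 1. Main clusters were named by their best-scoring marker list, with at least 3 markers in 10% of cells and 2 times the median over clusters. Further rules on depth and leading genes left some clusters unnamed. Clusters within a class were compared with its other cells instead. Classes were clustered again by the same steps. The naming score, the second clustering of the small classes and the set of macrophage clusters under 10 CPM were chosen after seeing the data.

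UMIs were summed per class and library and divided by the class total. Intervals at 95% are exact Poisson for CPM, Clopper-Pearson for shares and conditional binomial for ratios. A count of 0 allows up to 3 counts. With 1 library per condition no test was run, and a fold of 1.5 among genes with at least 100 UMIs in a class replaced it. The ratio code was tested on simulated data. Named genes were the 6 members, the 3 genes most like each (at least 500 UMIs), and list genes past the fold in the class with most Pdgfra UMIs and that with most Pdgfrb UMIs per cell, at most 2 per list and direction. Not every gene so named is reported here. The members, lists and rules were chosen with earlier results of these data known. Promoter sequence and start sites came from RefSeq on GRCm38.p6, with entries for 5 members, of which 3 are shown, and gene positions from the reference annotation of the same build. Alternatives to the cell limits, clustering, naming and scaling are given in the closing section.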

Additional observations from a re-analysis of the deposited data

How the results depend on the processing

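The log2 ratio of Pdgfb in macrophage- or monocyte-like cells, −0.63, kept its sign in all 16 alternatives and stayed past 1.5-fold in 7. It was −0.77 with doublets kept, −0.31 with a mitochondrial limit of 10% and −0.41 with at least 2000 UMIs per cell. Leiden seed 2 gave −0.083, no batch correction −0.019, log1p values −0.38 and members among the variable genes −0.76. It was −0.27 when classes were set cell by cell and −0.42 after thinning. With each cluster weighted the same in both libraries it was −0.0025.

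In mesenchymal-like cells, keeping doublets gave −0.61 for Pdgfa, 0.14 for Pdgfd, 0.019 for Pdgfra and −0.37 for Pdgfrb. Taking the class of each cell from its own best marker score gave −0.18 for Pdgfa, −0.51 for Pdgfc, 0.17 for Pdgfd and −0.12 for Pdgfra. Equal weight for each cell gave −0.10 for Pdgfa, −0.42 for Pdgfc and 0.35 for Pdgfd. Without the 5 cells richest in the gene, Pdgfa was −0.46 and Pdgfc −0.50. Thinning to 2000 UMIs gave −0.10 for Pdgfa, −0.34 for Pdgfc, 0.55 for Pdgfd, 0.041 for Pdgfra and −0.019 for Pdgfrb. With each cluster weighted the same in both libraries, an alternative added after seeing the data, Pdgfa was −0.37 and Pdgfc −0.43. Pdgfd was then 0.082 and Pdgfrb 0.15.

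The dendritic ratio of Pdgfa, −0.68, turned to 0.69 with at least 2000 UMIs, 0.71 with seed 2, 0.18 with log1p values, 0.82 with members among the variable genes and 1.02 when classes were set cell by cell. The mural ratio of Pdgfrb, 0.59, turned to −0.025 with seed 2, −0.37 with log1p values and −0.017 after thinning. The causes were not tested. With a fold of 2, 1 mesenchymal list gene was past it in place of 3, and with a minimum of 20 UMIs, 18 mural list genes in place of 9.

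The mesenchymal share of Pdgfra UMIs ranged from 81.1% to 99.2% and that of Pdgfrb from 62.3% to 93.4%, both lowest with doublets kept. Mural-like cells gave no value at resolution 0.5, at 2000 UMIs or more, or with a mitochondrial limit of 10%, since no cells took that class. Values by leading genes were computed for 1 clustering only. No paired analysis was possible because each condition has 1 library and no test was run. Depth limits the mural-like cells, which sum to 90204 UMIs in GA, and the megakaryocyte-like cells, at 444886 UMIs in GA and 190838 in control.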

Other observations

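The barcodes left out by the limits and by doublet removal, 947 in GA and 1163 in control, also held UMIs of the members. Pdgfc stood at 88.2 CPM in the GA barcodes left out and 165 CPM in those of control, Pdgfra at 59.4 and 82.1 CPM, Pdgfrb at 31.2 and 46.3 CPM, and Pdgfb at 6.16 and 17.1 CPM. Over all kept cells together the log2 ratios of GA over control were −1.20 for Pdgfa, −0.70 for Pdgfb, −1.20 for Pdgfc, −0.59 for Pdgfd, −0.90 for Pdgfra and −1.08 for Pdgfrb. These values include the difference in cell makeup between the libraries.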
